A study of Mus musculus with 21 samples.

Results

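The comparison described here is that of evening with morning in the IgA+ plasma cells (PCs) of control mice. It uses the 12 control libraries of a series of 21, 6 collected at Zeitgeber time 12 (ZT12, when the lights go off and mice become active) and 6 at ZT0 (when the lights come on and mice come to rest). It covers the 20256 of 53801 genes that had a total of 10 or more counts over all 21 libraries. Each library was made from the poly-A RNA of CD138+ IgA+ PCs, sort-purified from the small intestinal lamina propria of 1 mouse, and nothing was pooled. The mice were on a C57BL/6 background and were kept under 12 h of light and 12 h of dark with food always present. Their age is not given in the sources used here. The control mice carried the genotype Mb1 Cre-/- x Arntl fl/fl, that is, they had no Cre and both copies of Arntl, the gene of the clock factor Bmal1, flanked by loxP sites. The other 9 mice, 4 at ZT0 and 5 at ZT12, were knockout littermates (Mb1 Cre+/- x Arntl fl/fl), in which the Mb1 locus drives Cre throughout the B cell lineage. They enter as a comparison and also in the edgeR fit of all 21 libraries, from which the spread behind the reported gene tests was estimated. Control and knockout mice were told apart by the sample titles, because the genotype field names the control genotype for 8 of the 9 knockout samples. Every difference below is ZT12 minus ZT0, levels are CPM (counts scaled to a TMM-adjusted library size of 1000000), and a gene is called higher or lower at ZT12 where edgeR's quasi-likelihood test gave it a p under 0.05 after Benjamini-Hochberg adjustment over all 20256 genes.

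Plasma cells are terminally differentiated B cells that spend most of their capacity on making antibody: the ribosome translates it, the endoplasmic reticulum (ER) folds and glycosylates it, and the Golgi and the secretory route export it. Like other cells they contain a circadian clock, a feedback loop in which Bmal1 and Clock bind E-box elements and switch on the Per, Cry and Rev-erb genes whose proteins then repress Bmal1 and Clock or the transcription of Arntl itself. Feeding adds a daily signal of its own, to which the growth kinase mTOR and the sterol sensors of the SREBP family are known to respond. Ribosomal proteins and elongation factors are encoded by messengers that begin with a run of pyrimidines and that mTOR regulates as a class, while SREBP factors bind sterol elements upstream of cholesterol genes.

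The start regions of the genes on which the comparison turns are printed first, from the RefSeq promoter table (build GRCm38.p6, 250 bases before to 50 bases after each start, 15493 entries for 12270 of the genes tested). Positions are counted from the start base, which is 0. The clock gene Tef, the gene with the smallest p of the whole comparison, has an entry for each of 2 starts, and each holds the E-box CACGTG, in capitals, at -127 and at -138.
Tef, upstream start, chr15:81802513-81802662, forward strand: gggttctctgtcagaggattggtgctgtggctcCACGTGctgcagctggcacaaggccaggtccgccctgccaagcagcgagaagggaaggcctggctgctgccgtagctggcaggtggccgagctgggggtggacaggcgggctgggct
Tef, downstream start, chr15:81811254-81811403, forward strand: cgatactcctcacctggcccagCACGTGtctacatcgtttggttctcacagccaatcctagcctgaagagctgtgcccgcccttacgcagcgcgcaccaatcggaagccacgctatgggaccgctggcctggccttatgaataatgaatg
The Arntl stretch below holds a ROR element (capitals, +27), the site type bound by Rev-erb and ROR receptors.
Arntl, chr7:113207523-113207552, forward strand: tttagggaaggcagaAAGTAGGTCAgggac
Of the cholesterol genes, Nsdhl had the smallest p and none of the 6 motifs searched, and Hmgcs1, chosen after its values were seen, was the only entry of that list with a sterol element (capitals, -137).
Nsdhl, chrX:72918361-72918510, forward strand: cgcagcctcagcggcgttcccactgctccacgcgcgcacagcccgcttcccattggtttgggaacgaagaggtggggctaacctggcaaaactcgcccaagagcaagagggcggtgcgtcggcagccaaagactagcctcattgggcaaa
Hmgcs1, chr13:119690191-119690340, forward strand: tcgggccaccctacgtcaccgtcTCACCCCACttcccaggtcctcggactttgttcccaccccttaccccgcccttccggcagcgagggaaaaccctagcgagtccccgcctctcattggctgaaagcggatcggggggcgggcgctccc
The 40 bases around the start of 5 called genes of the translation apparatus, from -20 to +19, show the longest run of C and T in capitals. They were chosen because messengers of this class are known to begin with pyrimidines. At the RefSeq start used here the start base lies in the marked run for Eef1a1, Rack1 and Eif3f. It does not for Rpl4, whose run of 14 bases lies at -18 to -5, nor for Eef2, whose longest run has 6 bases and lies at +14 to +19.
Rpl4, chr9:64173367-64173406, forward strand: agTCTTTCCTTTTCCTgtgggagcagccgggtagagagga
Eef2, chr10:81176611-81176650, forward strand: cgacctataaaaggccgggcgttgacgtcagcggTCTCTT
Eef1a1, chr9:78481705-78481744, reverse strand: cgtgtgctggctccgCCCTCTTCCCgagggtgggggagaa
Rack1, chr11:48800340-48800379, forward strand: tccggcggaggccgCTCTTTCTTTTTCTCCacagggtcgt
Eif3f, chr7:108934395-108934434, forward strand: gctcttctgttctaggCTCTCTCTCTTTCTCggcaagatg

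Searched on both strands, CACGTG occurred in 9.2% of all 15493 promoters, in 13.6% of the 132 promoters of genes called higher and in 12.4% of the 145 promoters of genes called lower. Among the 22 promoters of the core clock and clock output genes it occurred in 27.3%. The sterol element, TCACCCCAC or TCACGCCAC, occurred in 0.80% of all promoters and in 5.6% (1 of 18) of those of cholesterol synthesis. The ROR element, AGGTCA directly preceded by AAGT or AACT, occurred in 0.10%, the D-box, TTATGTAA or TTACGTAA, in 0.74%, the cAMP element TGACGTCA in 2.77% and the heat shock element, GAA, TTC and GAA each 2 bases apart, in 0.52%. The D-box was in none of the 132 promoters of genes called higher and none of the 145 of genes called lower. A run of 8 or more C and T within 20 bases of the start was present in 16.1% of all promoters, against 42.7% (32 of 75) for cytosolic ribosomal proteins, 30.3% (40 of 132) for genes called higher and 17.9% (26 of 145) for genes called lower. The start base itself lay in such a run in 4.0% of all promoters, 24.0% of those of ribosomal proteins, 15.2% of those called higher and 1.38% of those called lower. The genes called higher include ribosomal proteins. With ribosomal proteins set aside, 21.978% (20 of 91) of the promoters of genes called higher had a run within 20 bases of the start. The start base lay in a run in 10.989% (10 of 91) of them. The pyrimidine measure was chosen after the fold changes were known, and these shares are descriptions of sequence with no test.

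Between 14471018 and 17431411 reads were counted on genes in the ZT0 mice and between 14580139 and 22785835 in the ZT12 mice. Of these reads, 51.5% to 53.3% fell on immunoglobulin genes at ZT0 and 53.3% to 63.6% at ZT12 (means 4.56 points apart; p = 0.00216 in a two-sided exact permutation test, the smallest p that 6 against 6 mice can give). They were 3.62 points apart when only constant regions were counted (exact permutation test, p = 0.0844). ZT12 replicates 2, 4 and 5 stood apart with 63.6%, 59.5% and 59.1%, while the other 3 ZT12 mice lay between 53.3% and 55.0%, 1.24 points above the ZT0 mice in the mean (exact permutation test, p = 0.0476). A trend of the log2 levels on gene length also moved with time of day: the slope per log2 of length was 0.03 to 0.11 at ZT0 and -0.24 to 0.08 at ZT12 (two-sided exact permutation test, p = 0.0476), with ZT12 replicates 2 and 4 the lowest at -0.24 and -0.14. For the groups of genes below, values are therefore also given without ZT12 replicates 2, 4 and 5. The plasma cell markers summed to at least 281773 CPM in every control mouse and other B cell, T cell and myeloid markers to at most 31.4, 26.6 and 82.9 CPM. Igha alone had 235061 to 517996 CPM over these mice, so most of the plasma cell sum is that gene. Epithelial markers summed to 53.2 to 342 CPM at ZT0 and 78.4 to 1007 CPM at ZT12, where replicate 5 was the highest, and 9 of 17 were higher at an unadjusted p under 0.05 but none was called by edgeR and 3 were by DESeq2. Stromal and endothelial markers summed to 41.5 to 45.9 CPM at ZT0 and 24.1 to 39.0 CPM at ZT12, with 1 of 9 called lower (Pecam1). Pecam1 alone had 36.0 to 42.4 and 19.1 to 37.1 CPM, so most of these sums is that gene and they say little about the other markers. The 2 eosinophil markers measured summed to 40.8 to 81.1 CPM at ZT0 and 45.1 to 183 CPM at ZT12. Prg2 alone had 40.8 to 80.8 and 44.8 to 183 CPM, so these sums follow 1 gene. Mast cell markers summed to at most 2.50 CPM, with 1 of 3 at 0 in all 12 mice. By Xist level each time held 3 female and 3 male mice, so sex was balanced between the times. In bulk RNA, fewer cells of a type and less RNA per cell cannot be told apart.

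Of the 20256 genes, 350 (1.73%) were called, 192 (0.948%) higher and 158 (0.78%) lower at ZT12, and the median log2 fold change of all genes was 0.01. At an unadjusted p under 0.05 from edgeR, 1862 genes (9.19%) were higher and 1795 (8.86%) lower, and 10259 estimates were positive and 9987 negative. These are the shares beside which the lists below are to be read. Most differences were small: the median log2 fold change was 0.67 among the genes called higher and -0.57 among those called lower, and 27 of the 192 and 16 of the 158 passed 1 on the log2 scale. The 6 ZT12 mice lay wholly above the 6 ZT0 mice for 151 genes (0.745%) and wholly below for 174 (0.859%), of which 96 and 73 were called in that direction. The genes called higher included 148 protein-coding genes and 42 pseudogenes, 18 of which are described as ribosomal protein copies, whereas those called lower were 148 protein-coding genes and 5 pseudogenes. Since reads of a processed copy and of its parent gene are hard to separate, the levels of these pseudogenes are uncertain. The calls also split by gene length: the median was 2175.5 bases for genes called higher and 6308.5 for genes called lower, beside 3093 for all genes. With the length trend removed 317 genes were called, 180 higher and 137 lower. Without ZT12 replicates 2, 4 and 5, 2 genes were called, Tef (log2 fold change 0.63) and Cox7a2l (0.81), each with an adjusted p of 0.0218 from edgeR. With the control libraries alone in the model 38 genes were called. By DESeq2, which gave 12381 genes an adjusted p, 1052 were (8.5%), 621 higher (5.02%) and 431 lower (3.48%). Leaving out 1 mouse at a time gave 31 to 194 calls for the ZT0 mice and 36 to 175 for ZT12 replicates 2 to 5, but 934 without ZT12 replicate 1 and 687 without ZT12 replicate 6. Scaling by library size alone, which shifted the median of all genes to -0.20, turned the split to 48 higher and 398 lower, so that higher genes made up 10.8% of calls instead of 54.9%.

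**Figure D1:**
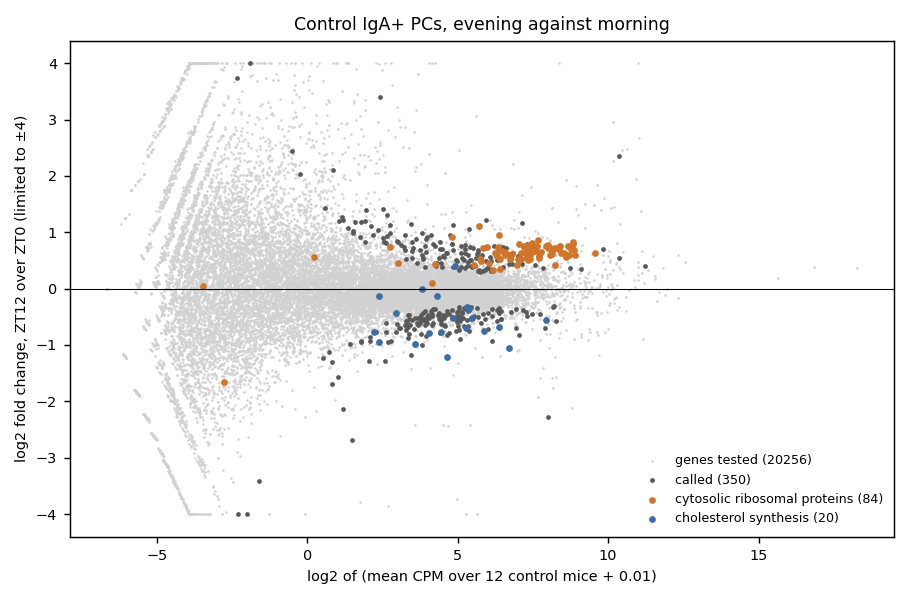
Log2 fold change of ZT12 over ZT0 (vertical axis, limited to 4 in either direction) against the mean level over the 12 control mice (horizontal axis, log2 of CPM plus 0.01) for the 20256 genes tested; dark points are the 350 called genes. Cytosolic ribosomal proteins (orange) lie as a band above 0 at high levels, 83 of 84 with a positive value, and cholesterol synthesis genes (blue) lie below 0 with 1 exception of 20.

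The clock genes come first, ordered from the activators to the repressors and the output factors. Arntl, whose protein Bmal1 is the positive arm of the loop, had 6.83 to 8.36 CPM (median 7.92) at ZT0 and 4.00 to 5.56 CPM (median 4.49) at ZT12. Every ZT12 mouse was below every ZT0 mouse, and Arntl fell (log2 fold change -0.78, SE 0.15, adjusted p = 0.0149 from edgeR). Its partners were not called: Clock had a log2 fold change of -0.14 (SE 0.13) and Npas2 was at or below 0.436 CPM in every mouse. Among the repressors, Nr1d1, which encodes Rev-erb alpha, had 1.15 to 2.90 CPM (median 2.33) and 2.43 to 10.3 CPM (median 6.15) and its estimate was the largest of them, but it did not pass (log2 fold change 1.52, SE 0.41, adjusted p = 0.0597 from edgeR). Neither did Per2 (0.81, adjusted p = 0.0877 from edgeR), Ciart (1.02, adjusted p = 0.0981) nor Cry1 (0.35, adjusted p = 0.111). The ZT12 mice ran higher in all of these, with overlap. Per1, Per3, Cry2 and Nr1d2 had log2 fold changes of 0.09, 0.14, 0.13 and 0.30, none of them called.

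Tef, a PAR bZIP factor that carries clock phase to D-box genes, had 14.3 to 18.1 CPM (median 17.3) at ZT0 and 23 to 30.5 CPM (median 27.9) at ZT12. The 2 groups of mice did not overlap, and Tef rose 1.63-fold (log2 fold change 0.71, SE 0.09, adjusted p = 0.000437 from edgeR). Dbp and Hlf, the other PAR bZIP factors, had log2 fold changes of 0.09 (SE 0.26) and -0.68 (SE 0.94), with Hlf at or below 0.5 CPM throughout. In all, 1 of 13 core clock genes was called lower and 1 of 7 output genes higher, and edgeR called 0 of 18 clock kinases and ligases (5 at an unadjusted p under 0.05, 2 called by DESeq2). Rbm3, a cold-induced RNA-binding protein known for its daily rhythm, had 71.5 to 97.1 CPM (median 92.1) and 101 to 162 CPM (median 126) and rose without overlap (log2 fold change 0.54, SE 0.12, adjusted p = 0.0221 from edgeR). Its list partner was not called. Fkbp5, a standard target of the glucocorticoid receptor, had 12.5 to 18.5 CPM (median 15.2) and 14.1 to 36.6 CPM (median 30.1) and rose (log2 fold change 0.83, SE 0.20, adjusted p = 0.0414 from edgeR), with 1 ZT12 mouse or more inside the ZT0 range. It was the single call among 16 glucocorticoid response genes. With ZT12 replicates 2, 4 and 5 left out, Tef was still called and Arntl, Rbm3 and Fkbp5 were not.

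Ribosomal proteins made up the largest called group. Of 84 cytosolic ribosomal proteins, 47 were called higher and none lower, 77 were higher at an unadjusted p under 0.05 (9.19% of all genes were), and their median log2 fold change was 0.64. Both subunits took part: 26 of 50 large subunit and 20 of 32 small subunit proteins were called, with medians of 0.62 and 0.66. Rpl4, a protein of the large subunit, had 372 to 394 CPM (median 385) at ZT0 and 457 to 784 CPM (median 563) at ZT12, and rose without overlap (log2 fold change 0.59, SE 0.11, adjusted p = 0.0115 from edgeR). Rpl5, which carries 5S RNA into the large subunit, had 189 to 242 CPM (median 228) and 255 to 547 CPM (median 351), again without overlap (log2 fold change 0.72, SE 0.14, adjusted p = 0.0197 from edgeR). Rpl3, at the catalytic centre of the ribosome, had 217 to 232 CPM (median 221) and 261 to 472 CPM (median 323). The ZT0 mice kept to a narrow range below all ZT12 mice, and Rpl3 rose by a log2 fold change of 0.61. Rps6, the ribosomal target of S6 kinase, had 222 to 255 CPM (median 241) and 276 to 576 CPM (median 383) (log2 fold change 0.72, SE 0.15, adjusted p = 0.0212 from edgeR). The ZT12 mice were above all ZT0 mice for 28 of the 84 (0.745% of all genes), and the wide range at ZT12 came with a narrow range at ZT0.

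The 7 ribosomal proteins with an unadjusted p of 0.05 or more were Rpl17, Rpl23a, Rpl24, Rps27a, Rpl7l1, Rpl3l and Rpl39l, named here after their values were seen. Rpl3l, the muscle form, gave the only negative estimate of the list (-1.66). Summed over the list, ribosomal protein transcripts made up 10600 to 12963 CPM (median 12513) in the ZT0 mice and 13664 to 29520 CPM (median 18426) in the ZT12 mice. The sums did not overlap, and ZT12 replicate 2 was the highest. As the median deviation of the list from the mean of the 12 mice on the log2 scale, the ZT0 mice had -0.50 to -0.21 and the ZT12 mice -0.15, 0.97, 0.37, 0.55, 0.22 and -0.14 for replicates 1 to 6. ZT12 replicates 1 and 6 were thus closer to the ZT0 mice than to ZT12 replicate 2. Without ZT12 replicates 2, 4 and 5 the median was 0.34, with 43 members at an unadjusted p under 0.05 (4.15% of all genes were higher at that p) and none called by edgeR. With only the control libraries in the model the median was 0.64 and none was called. Leaving out single mice gave 1 call without ZT0 replicate 1, ZT0 replicate 2 or ZT12 replicate 4, 11 to 24 without any of 7 others, and 66 and 69 without ZT12 replicates 6 and 1. The immunoglobulin share and the length trend moved with this list in the same mice. With the immunoglobulin share as a covariate the median was 0.23, 22 members were higher at an unadjusted p under 0.05 (4.55% of all genes were) and edgeR called none. The median gene length of the list was 1736.5 bases, and with the length trend removed its median log2 fold change was 0.49 and 40 were called.

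**Figure D2:**
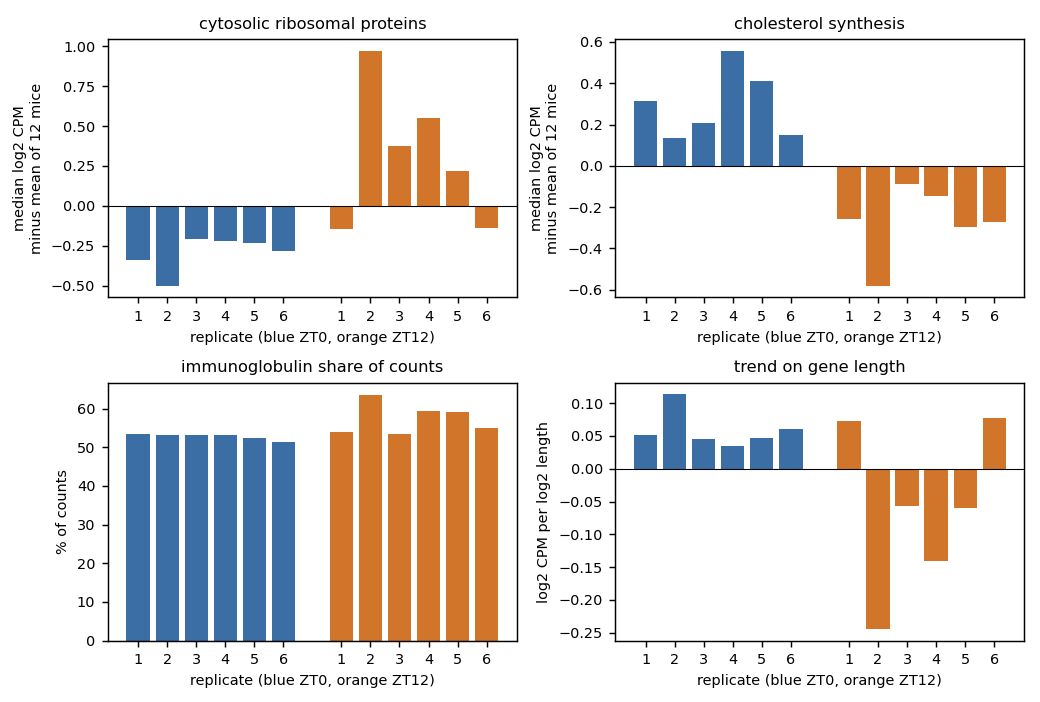
Each bar is 1 control mouse, blue for ZT0 and orange for ZT12, numbered by replicate: the median deviation of cytosolic ribosomal proteins and of cholesterol synthesis genes from the mean of the 12 mice (log2 CPM), the share of counts on immunoglobulin genes (%) and the slope of log2 CPM on log2 gene length. ZT12 replicate 2 is the most extreme in all 4 panels, while for cholesterol synthesis every ZT0 mouse is above 0 and every ZT12 mouse below it.

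The factors that feed the ribosome were next. Of 72 translation factors, 8 were called higher and none lower, with a median of 0.13 that turned to -0.08 when libraries were scaled by size alone. The 8 were parts of the initiation complex eIF3 (Eif3f, Eif3h, Eif3m, Eif3k and Eif3e) and elongation factors (Eef2, Eef1a1 and Eef1b2). Eef2, which moves the ribosome along the messenger, had 1040.2 to 1106 CPM (median 1086) and 1321 to 2036 CPM (median 1525) (log2 fold change 0.55, SE 0.10, adjusted p = 0.0103 from edgeR). Eef1a1, which delivers aminoacyl-tRNA, had 1962 to 2118 CPM (median 2026) and 2423 to 3144 CPM (median 2656) (log2 fold change 0.41, SE 0.08, adjusted p = 0.0197 from edgeR). Eif3f had 84.9 to 93.4 CPM (median 88.7) and 106 to 191 CPM (median 130.05) (log2 fold change 0.64, SE 0.11, adjusted p = 0.00905 from edgeR), and Eif3h had 51.0 to 60.1 CPM (median 57.2) and 66.3 to 105 CPM (median 76.7) (log2 fold change 0.49, SE 0.10, adjusted p = 0.0152 from edgeR). For each of these 4 genes all ZT12 mice were above all ZT0 mice, and over the list this held for 10 of 72 genes (0.745% of all genes). Summed over the list, the factors made up 8139 to 8663 CPM at ZT0 and 9184 to 11680 CPM at ZT12. With ZT12 replicates 2, 4 and 5 left out, the median was 0.10 and no factor was called by edgeR.

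Of 39 aminoacyl-tRNA synthetases, which charge tRNAs, 4 were called higher: Cars2, the mitochondrial enzyme for cysteine (14.8 to 22.6 CPM at ZT0 and 23.1 to 34.7 at ZT12, log2 fold change 0.58, SE 0.11, adjusted p = 0.0131 from edgeR), Yars (0.50), Sars (0.44) and Qars (0.36). The median of that list was 0.013, beside 0.0063 for all genes. Mitochondrial ribosomal proteins had 1 call in 75, Mrpl24 (0.38), and a median of 0.15 that was -0.06 under library size alone. Ribosome biogenesis factors, which build the subunits in the nucleolus, had no call in 45 by edgeR (3 higher and 7 lower at an unadjusted p under 0.05, 1 called lower by DESeq2) and a median of 0.04. The structural proteins of the cytosolic ribosome therefore stood at 0.64 beside 0.15 for the mitochondrial ribosome and 0.04 for the factors that assemble it. Rack1, a scaffold of the small subunit outside the list, had 279 to 310.05 CPM (median 295) and 349 to 634 CPM (median 438) (log2 fold change 0.63, SE 0.13, adjusted p = 0.0197 from edgeR), and Tpt1 and Naca, also translation-associated, had log2 fold changes of 0.70 and 0.74. These 3 were named after their values were seen. With ZT12 replicates 2, 4 and 5 left out, the medians were 0.07 for the synthetases and -0.02 for mitochondrial ribosomal proteins, Cars2 had 0.46 and Rack1 0.41, and edgeR called no gene of these lists, nor Rack1, Tpt1 or Naca.

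**Figure D3:**
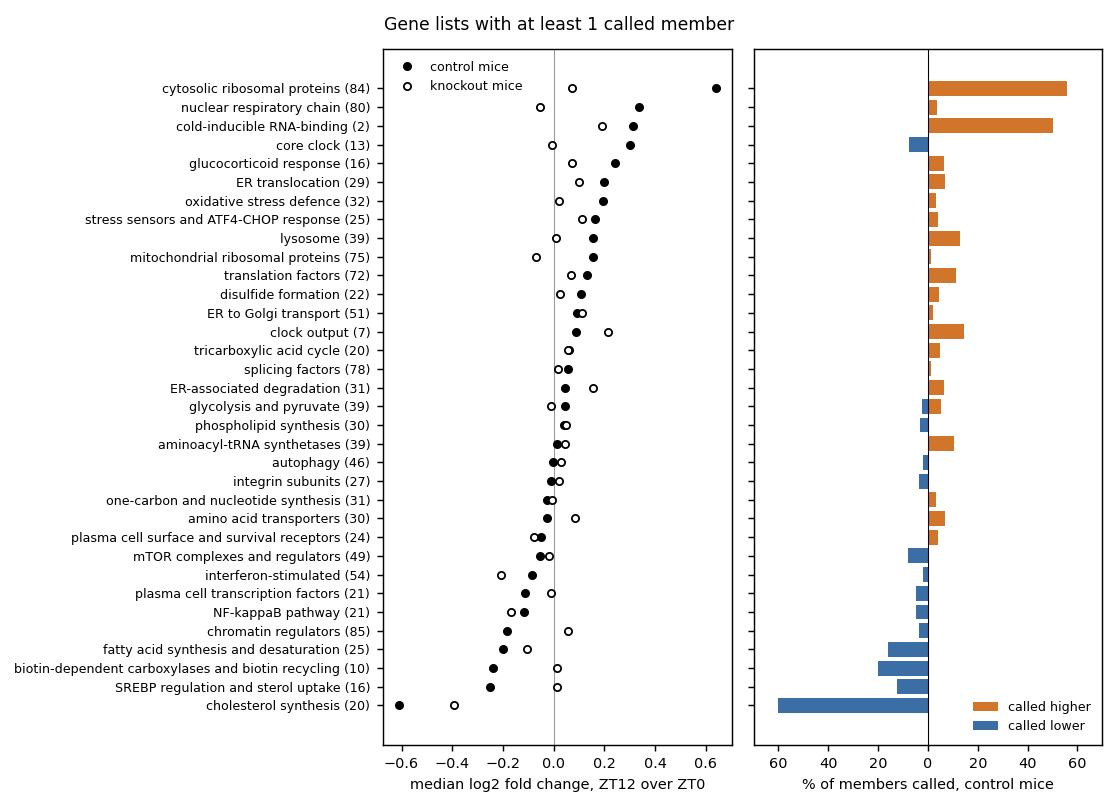
The gene lists with at least 1 called member, with the number of genes measured in brackets: on the left the median log2 fold change of ZT12 over ZT0 in control mice (filled) and in knockout mice (open), on the right the percentage of members called higher (orange) or lower (blue) in control mice. Ribosomal proteins (0.64) and cholesterol synthesis (-0.61) mark the ends of the order, and the knockout medians of these lists are 0.07 and -0.39.

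Genes of mitochondrial respiration were higher at ZT12 in estimate more often than in calls. Of 80 nuclear-encoded respiratory chain genes, 76 had positive values (10259 of all 20256 genes did) and 43 an unadjusted p under 0.05 in that direction (9.19% of all genes). Their median was 0.34, but 3 were called, all higher (0.948% of all genes). Cox7a2l, which joins respiratory complexes into supercomplexes, had 24.9 to 29.7 CPM (median 27.1) and 40.5 to 90 CPM (median 50.3). No ZT12 mouse fell into the ZT0 range, and Cox7a2l rose 2.08-fold (log2 fold change 1.06, SE 0.16, adjusted p = 0.00491 from edgeR). Ndufa6, a subunit of complex I, had 15.1 to 20.8 CPM (median 18.4) and 21.1 to 40.1 CPM (median 26.1) (log2 fold change 0.57, SE 0.13, adjusted p = 0.0275 from edgeR). Uqcrh, a subunit of complex III, had 25.9 to 31.2 CPM (median 26.6) and 26.9 to 66.7 CPM (median 42.0), with overlap (log2 fold change 0.63, SE 0.16, adjusted p = 0.0426 from edgeR). By complex, the medians were 0.34 for complex I (36 genes), 0.15 for complex II (4), 0.31 for complex III (10), 0.39 for complex IV (13) and 0.28 for the ATP synthase (17). The 13 genes of the mitochondrial genome had a median of 0.29, with 3 higher at an unadjusted p under 0.05, none called by edgeR and 1 by DESeq2. Without ZT12 replicates 2, 4 and 5 the median of the nuclear genes was 0.02 and Cox7a2l was the single call. With the immunoglobulin share as a covariate that median was -0.0093 and none was called by edgeR, with 1 higher and 3 lower at an unadjusted p under 0.05. These nuclear genes had a median length of 1631 bases, and with the length trend removed their median log2 fold change was 0.10 with 3 called.

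In the pathways that feed respiration, few genes were called. Of 39 glycolysis and pyruvate genes, Pfkp, a phosphofructokinase, had 35.3 to 54.5 CPM (median 44.7) and 50 to 84.2 CPM (median 69.4) and rose (log2 fold change 0.61, SE 0.14, adjusted p = 0.0275 from edgeR), Gpi1 rose (0.32) and Pdp2, a phosphatase that activates pyruvate dehydrogenase, fell (-0.60). Idh2, the mitochondrial isocitrate dehydrogenase, was the single call among 20 genes of the tricarboxylic acid cycle, with 35.9 to 42.8 CPM (median 39.3) and 46.2 to 89.0 CPM (median 54.3) (log2 fold change 0.62, SE 0.14, adjusted p = 0.0301 from edgeR). Khk, which phosphorylates fructose and stood outside the lists, had 3.52 to 4.77 CPM (median 4.37) and 5.45 to 16.2 CPM (median 7.85), and rose 2.19-fold without overlap (log2 fold change 1.13, SE 0.21, adjusted p = 0.0107 from edgeR). Its highest level, 16.2 CPM, was in ZT12 replicate 5, the mouse with the highest epithelial marker sum. How much of that level is epithelial RNA was not tested. Shmt2, a one-carbon enzyme, rose (0.44) as the only call of 31 one-carbon and nucleotide genes and of 25 stress sensor and ATF4 response genes. Prdx6, a peroxiredoxin, rose (0.33) as the only call of 32 genes of oxidative stress defence, whose median of 0.19 became -0.03 under library size alone. No fatty acid oxidation gene of 38 was called by edgeR, with 5 at an unadjusted p under 0.05 and 1 called by DESeq2. When ZT12 replicates 2, 4 and 5 were left out, edgeR called none of these genes. Khk then had a log2 fold change of 0.74, Pfkp 0.41, Idh2 0.36, Shmt2 0.30 and Prdx6 0.32.

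Along the secretory route the calls were scattered and all higher. In ER translocation, the entry of new chains, 2 of 29 were called, Srp9 of the signal recognition particle (92.9 to 119.6 CPM (median 103) and 118 to 211 CPM (median 143), log2 fold change 0.57, SE 0.12, adjusted p = 0.0244 from edgeR) and Ssr2 of the translocon (0.43), and 26 of 29 estimates were positive. In ER-associated degradation, 2 of 31 were called, the lectin Erlec1 (0.55) and Ufd1 (0.33), and in disulfide formation 1 of 22, the sulfhydryl oxidase Qsox1 (0.38). In ER to Golgi transport 1 of 51 was called, Kdelr1, the receptor that returns ER proteins from the Golgi, with 60.5 to 75.1 CPM (median 67.5) and 77.0 to 145 CPM (median 90.8) and no overlap (log2 fold change 0.54, SE 0.11, adjusted p = 0.022 from edgeR). Rab30, a Golgi GTPase outside the lists, had 35.6 to 42.9 CPM (median 39.7) and 46.6 to 68.9 CPM (median 57.6), likewise without overlap (log2 fold change 0.54, SE 0.09, adjusted p = 0.00606 from edgeR). None of 22 ER chaperones was called by edgeR, although 10 were higher at an unadjusted p under 0.05 (9.19% of all genes were) and 2 were called by DESeq2. The nearest was Fkbp11 (0.53, adjusted p = 0.0559 from edgeR). None of 40 N-glycosylation genes was called by edgeR either, with 13 higher and 2 lower at an unadjusted p under 0.05 and 5 called by DESeq2. Under library size alone the medians of ER translocation (0.20), ER to Golgi transport (0.09) and disulfide formation (0.11) turned to -0.03, -0.12 and -0.09.

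Lysosomal genes gave 5 calls in 39, all higher, with a median of 0.16 that was -0.06 under library size alone. Lamp1, a main protein of the lysosomal membrane, had 11.7 to 16.5 CPM (median 14.3) and 16.3 to 28.1 CPM (median 24.7). The lowest ZT12 mouse lay just below the highest ZT0 mouse, and Lamp1 rose 1.69-fold (log2 fold change 0.76, SE 0.14, adjusted p = 0.0115 from edgeR). Its relative Lamp2 rose as well (0.36), as did the luminal galactosidase Glb1 (0.41) and its protective protein Ctsa (0.30). Glb1 separated the mice of the 2 times. Summed over the list, lysosomal transcripts made up 2073 to 2314 CPM at ZT0 and 2236 to 2738 CPM at ZT12, with overlap. In autophagy 1 of 46 was called, the ER-phagy receptor Fam134b, with 17.3 to 22.9 CPM (median 18.8) and 8.50 to 16.4 CPM (median 14.1) (log2 fold change -0.52, SE 0.12, adjusted p = 0.0356 from edgeR), which fell. No proteasome gene of 47 was called by edgeR (8 higher and 3 lower at an unadjusted p under 0.05) or by DESeq2, and no heat shock gene of 37 by edgeR (9 higher at an unadjusted p under 0.05, 4 called by DESeq2). With ZT12 replicates 2, 4 and 5 left out, the lysosomal median was 0.09 and none of the secretory or lysosomal genes was called by edgeR.

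Cholesterol synthesis was the list with the most genes called lower. Of 20 genes of the route from acetyl-CoA to cholesterol, 12 were called lower (0.78% of all genes) and none higher. Negative values were found for 19 (9987 of all 20256 genes), and the median log2 fold change was -0.61. At the entry, Hmgcs1, which makes HMG-CoA, had 106 to 219 CPM (median 124) and 39.9 to 97.0 CPM (median 64.6), without overlap (log2 fold change -1.06, SE 0.25, adjusted p = 0.0414 from edgeR). In the mevalonate steps Mvk, the mevalonate kinase, had 6.05 to 8.06 CPM (median 6.36) and 2.37 to 4.96 CPM (median 3.57) (log2 fold change -0.94, SE 0.18, adjusted p = 0.0127 from edgeR), and Idi1, the isopentenyl isomerase, had a log2 fold change of -0.77. At the first sterol steps, the squalene synthase Fdft1 (-0.52) and the squalene epoxidase Sqle fell, the latter from 63.8 to 87.9 CPM (median 71.9) to 32.5 to 53.9 CPM (median 46.4) (log2 fold change -0.75, SE 0.13, adjusted p = 0.00606 from edgeR), and so did the cyclase Lss (-0.52). In the demethylation of lanosterol, Cyp51 had 84.4 to 131 CPM (median 97.8) and 55.6 to 71.1 CPM (median 64.6) (log2 fold change -0.67, SE 0.11, adjusted p = 0.00551 from edgeR). Nsdhl, which acts next, had 17.2 to 24.2 CPM (median 22) and 10.6 to 15.6 CPM (median 11.4) (log2 fold change -0.79, SE 0.12, adjusted p = 0.00475 from edgeR). Neither pair of ranges overlapped, and Hsd17b7 at the same step fell by 0.98 on the log2 scale. At the end of the route, Dhcr7, a sterol reductase, fell by 0.36.

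The route did not move as a whole. Ebp, the sterol isomerase, was the only gene with a positive estimate (0.40, SE 0.12, edgeR adjusted p = 0.0782), and by DESeq2 it was called higher. Mvd (0.00), Pmvk (-0.13) and Acat2 (-0.13), from the early steps, had estimates near 0, and Fdps (-0.43), Sc5d (-0.33), Msmo1 (-0.69) and Tm7sf2 (-0.76) were negative without being called. Over the 12 mice the summed level of the list was 864 to 1301 CPM (median 960) at ZT0 and 520 to 743 CPM (median 702) at ZT12, so that every evening mouse was below every morning mouse. The mouse-by-mouse median deviation on the log2 scale was 0.14 to 0.56 at ZT0 and -0.58 to -0.09 at ZT12. Without ZT12 replicates 2, 4 and 5 the median was -0.52, 15 genes had an unadjusted p under 0.05 in the lower direction (3.64% of all genes), and edgeR called none. With the control libraries alone the median was -0.61 and 5 genes were called. Leaving out single mice gave 5 (ZT0 replicates 1, 2 and 5 and ZT12 replicate 4), 6 or 7 (ZT0 replicates 3 and 4 and ZT12 replicate 5) or 8 to 13 calls. Among female and male mice analysed separately the median was -0.60 and -0.62, with 0 and 2 called by edgeR. With the immunoglobulin share as a covariate the median was -0.49, 14 genes were lower at an unadjusted p under 0.05 (3.58% of all genes) and none was called by edgeR, and with the length trend removed it was -0.56 with 10 called.

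Regulators and neighbours of the sterol route moved the same way in part. Srebf2, the transcription factor of the sterol response, had 329 to 396 CPM (median 371) and 202 to 286 CPM (median 255), with every ZT12 mouse below every ZT0 mouse (log2 fold change -0.58, SE 0.09, adjusted p = 0.00475 from edgeR). It was among 2 of 16 called genes of SREBP regulation and sterol uptake (both lower, median -0.25). None of 15 sterol efflux and LXR genes was called by edgeR or DESeq2, or passed an unadjusted p of 0.05. Of 25 genes of fatty acid synthesis and desaturation 4 were called, all lower, with a median of -0.20. Acly, which makes cytosolic acetyl-CoA, and Fasn, the synthase, had log2 fold changes of -0.49 and -0.69. Scd2, a desaturase, had 86.3 to 111 CPM (median 89.3) and 33.2 to 64.9 CPM (median 48.9), without overlap (log2 fold change -0.92, SE 0.16, adjusted p = 0.0107 from edgeR), and Fads1 had -0.71. Lpin1, which forms diacylglycerol for phospholipids and triglyceride, had 27.1 to 35.8 CPM (median 32.7) and 13.7 to 24.1 CPM (median 17.5), without overlap (log2 fold change -0.82, SE 0.15, adjusted p = 0.0107 from edgeR), and was the only call of 30 phospholipid genes. Hlcs and Btd, which attach and recycle biotin, the cofactor of acetyl-CoA carboxylase, fell by 0.65 and 0.37, 2 of 10 genes in their list. With ZT12 replicates 2, 4 and 5 left out, the fatty acid median was -0.26 and no gene of these lists was called by edgeR.

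**Figure D4:**
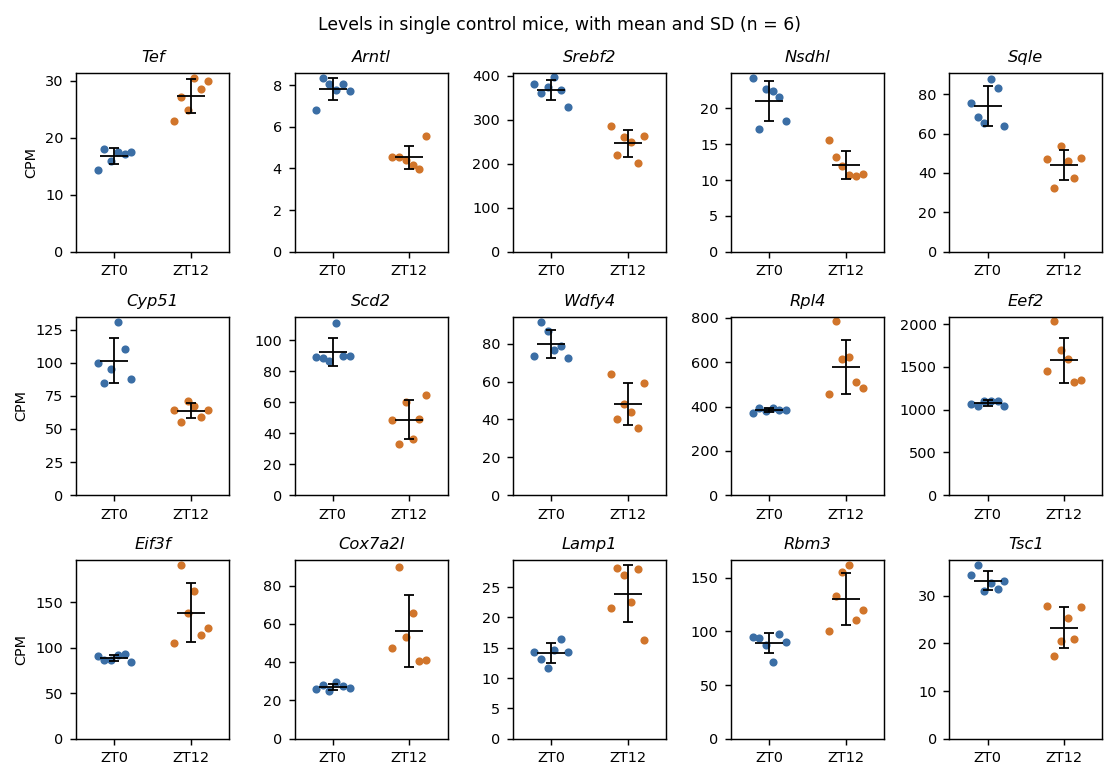
Levels in CPM (vertical axes from 0) of 15 named genes in each control mouse at ZT0 (blue) and ZT12 (orange), with the mean and SD of 6 mice. Tef, Rpl4, Eef2, Eif3f, Cox7a2l and Rbm3 lie higher and Arntl, Srebf2, Nsdhl, Sqle, Cyp51, Scd2, Wdfy4 and Tsc1 lower in every ZT12 mouse than in any ZT0 mouse, while Lamp1 overlaps.

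The nutrient sensing genes had 4 calls, all lower, among 49 of the mTOR complexes and their regulators, and a median of -0.06. Tsc1, a brake on mTORC1, had 31.1 to 36.5 CPM (median 33.0) and 17.4 to 27.8 CPM (median 23.1), without overlap (log2 fold change -0.51, SE 0.11, adjusted p = 0.0256 from edgeR). Gatsl2, of the family of arginine sensors, had 9.37 to 17.2 CPM (median 13) and 5.13 to 10.4 CPM (median 6.42) (log2 fold change -0.87, SE 0.20, adjusted p = 0.0356 from edgeR). The others were Rptor and Rictor, the defining subunits of mTORC1 and mTORC2 (-0.49 and -0.52), and in these 3 the mice of the 2 times overlapped. The calls thus included both components and a brake of the complex. Of 30 amino acid transporters 2 were called higher, Slc7a7, a carrier of cationic amino acids (9.42 to 13.6 and 12.2 to 21.7 CPM, log2 fold change 0.60, SE 0.15, adjusted p = 0.0382 from edgeR), and Slc38a9, the lysosomal transporter that signals arginine to mTORC1 (0.40). None of 32 insulin, IGF and PI3K genes was called by edgeR, with 5 at an unadjusted p under 0.05 and 1 called by DESeq2. No mTOR or transporter gene was called without ZT12 replicates 2, 4 and 5 by edgeR.

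Several of the genes with the smallest p in the lower direction lay outside the lists above. Tnip1, an inhibitor in the NF-kappaB pathway, had 45.2 to 63.2 CPM (median 53.8) and 34.3 to 42.7 CPM (median 38.6) (log2 fold change -0.49, SE 0.10, adjusted p = 0.0197 from edgeR). Wdfy4, a BEACH domain protein, had 72.5 to 91.4 CPM (median 77.8) and 35.3 to 63.9 CPM (median 45.9) (log2 fold change -0.72, SE 0.12, adjusted p = 0.00491 from edgeR). In both genes and in Ifi203, an interferon-inducible DNA sensor family member (41.5 to 52.0 and 20.9 to 36.8 CPM, log2 fold change -0.70, SE 0.12, adjusted p = 0.00905 from edgeR), every ZT12 mouse was below every ZT0 mouse. Dpysl2, which binds microtubules, had 17.6 to 21.5 CPM (median 18.2) and 6.44 to 12.0 CPM (median 9.43), also apart, and fell to 0.50 of the ZT0 level (log2 fold change -1.0, SE 0.17, adjusted p = 0.00606 from edgeR). Tnip1 was the 1 call in 21 NF-kappaB genes and Ifi203 the 1 call in 54 interferon-stimulated genes. Of the latter, 12 were lower at an unadjusted p under 0.05 (8.86% of all genes were). Itgb3, the beta3 integrin subunit, was the 1 call in 27 integrin subunits (log2 fold change -0.67, SE 0.10, adjusted p = 0.00475 from edgeR). When ZT12 replicates 2, 4 and 5 were left out, Wdfy4 had a log2 fold change of -0.48, Tnip1 -0.44, Ifi203 -0.52, Dpysl2 -1.03 and Itgb3 -0.60, and edgeR called none of them.

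The genes that define a plasma cell gave few calls. Of 21 plasma cell transcription factors, Ikzf3, which encodes Aiolos, was called lower, with 146 to 182 CPM (median 161) and 101 to 147 CPM (median 123) (log2 fold change -0.37, SE 0.10, adjusted p = 0.0473 from edgeR). Prdm1, which encodes Blimp1, had 268 to 359 CPM (median 312) and 226 to 344 CPM (median 238) and was not called (-0.30, SE 0.10), nor were Xbp1 (0.28, SE 0.10) and Irf4 (-0.19, SE 0.13). The sorting marker Sdc1, which encodes CD138, had a log2 fold change of -0.15 (SE 0.09). Of 24 surface and survival receptors Il10ra was called higher, at 1.06 to 2.92 CPM (median 1.71) and 1.60 to 6.41 CPM (median 4.41) (log2 fold change 1.18, SE 0.31, adjusted p = 0.0479 from edgeR). No gut homing gene of 17 was called by edgeR (4 at an unadjusted p under 0.05, 2 called by DESeq2), nor any of 19 BCL2 family genes (6 and 2), 11 MHC class II genes (3 and 1) or 22 other B cell identity genes (6 and 1). Without ZT12 replicates 2, 4 and 5 none of these genes was called by edgeR.

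Of the antibody genes, the constant regions and J chain gave no call in 13 by edgeR (5 at an unadjusted p under 0.05, 2 called by DESeq2), with a median of 0.38 that was 0.13 under library size alone and -0.04 without ZT12 replicates 2, 4 and 5. Igkc, the kappa constant region, had 90490.4 to 108891 CPM (median 103249) and 104756 to 201587 CPM (median 122785), with ZT12 replicate 2 the highest (log2 fold change 0.38, SE 0.12, adjusted p = 0.104 from edgeR). With the immunoglobulin share as a covariate Igkc had -0.030, but Igkc counts are themselves part of that share. Its change under this covariate thus cannot be told apart from that of the share. Jchain, which links IgA dimers, had a log2 fold change of 0.19 (SE 0.10). Variable gene levels depend on which clones a mouse holds, and reads of near-identical V genes are hard to assign. Ighv3-8 was the 1 call in 108 heavy chain V genes, at 191 to 609 CPM (median 432) and 19.8 to 166 CPM (median 73.6) (log2 fold change -2.28, SE 0.47, adjusted p = 0.0275 from edgeR), and Igkv8-24 the 1 call in 99 kappa V genes, at 190.3 to 644 CPM (median 409) and 459.6 to 3908 CPM (median 2167) (log2 fold change 2.35, SE 0.54, adjusted p = 0.0414 from edgeR). Ighv3-8 was lower in every ZT12 mouse, whereas Igkv8-24 overlapped. The 3 lambda V genes had no call by edgeR or DESeq2. When ZT12 replicates 2, 4 and 5 were left out, Ighv3-8 had a log2 fold change of -2.15 and Igkv8-24 one of 1.54, and neither was called by edgeR.

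In the nucleus, chromatin regulators mostly had negative values: 72 of 85 were below 0 and 30 had an unadjusted p under 0.05 in that direction (8.86% of all genes did), with a median of -0.19, and 3 were called. These were Baz2b, at 20.2 to 29.3 and 12.2 to 19.8 CPM (log2 fold change -0.52, SE 0.13, adjusted p = 0.0403 from edgeR), the methyltransferase Ezh1 (-0.37) and the remodeller Chd2 (-0.40). The list is one of long genes, with a median length of 10444 bases, and its summed level was 4474 to 4697 CPM at ZT0 and 2978 to 4668 CPM at ZT12. Its median was -0.05 without ZT12 replicates 2, 4 and 5, and 0.0040 with the immunoglobulin share as a covariate, with none called by edgeR in either (3 and 2 lower at an unadjusted p under 0.05). Of 78 splicing factors 1 was called, Luc7l2 (0.36), higher, with a list median of 0.06 that was -0.15 under library size alone. Replication-dependent histones had a median of 0.68 in control mice and -1.15 in knockout mice, with no call in 52 by edgeR (11 at an unadjusted p under 0.05, 2 called by DESeq2). Their summed level in control mice was 398 to 752 CPM (median 587) at ZT0 and 341 to 807 CPM (median 525) at ZT12. The libraries were poly-A selected, and how fully they capture histone messengers was not tested, which also limits the genotype differences below. Cell cycle genes gave no call in 49 by edgeR (4 at an unadjusted p under 0.05, 1 by DESeq2), p53 targets none in 29 (3 and 2), immediate early genes none in 30 (9 and 2), with a median of 0.36, and nuclear and snoRNA-host long noncoding RNAs none in 25 (7 and 1).

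**Figure D5:**
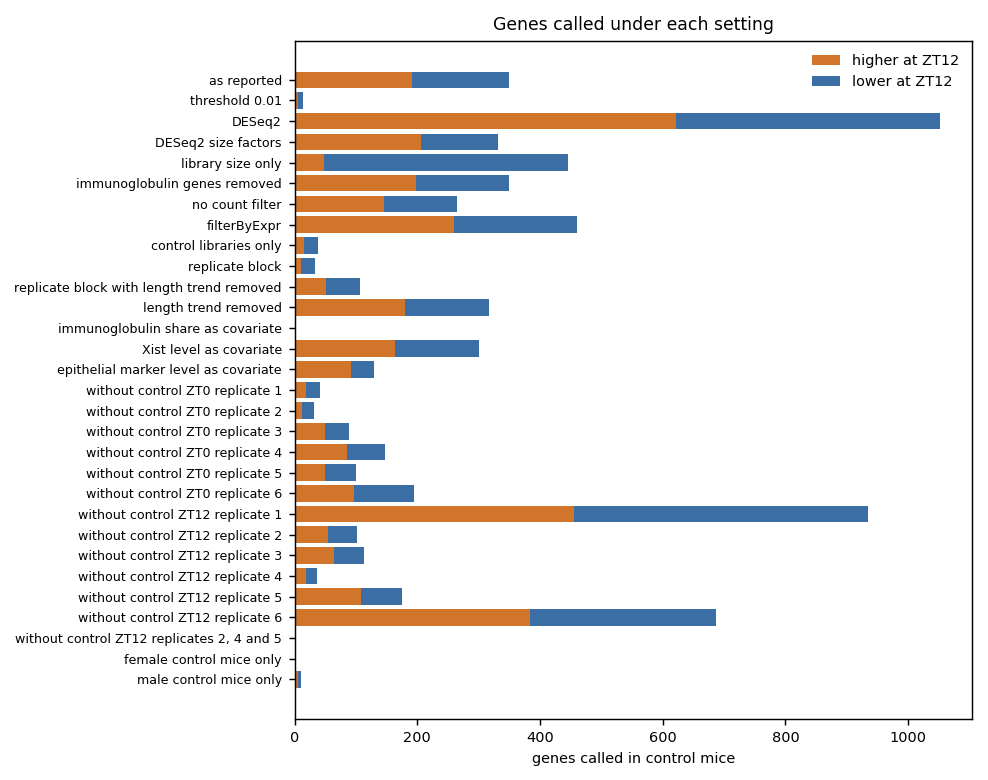
Number of genes called between ZT12 and ZT0 in control mice under each setting, higher in orange and lower in blue, with the reported fit at the top. The count runs from 0 with the immunoglobulin share as a covariate to 1052 with DESeq2, and from 31 to 934 when single mice are left out.

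The same comparison in the 9 knockout mice contrasts none of the control libraries, but the estimate of spread is shared with them. It gave no call by edgeR (0% in either direction, with 1622 genes at an unadjusted p under 0.05 and 47 called by DESeq2). Arntl, counted over its whole length including exons outside the floxed part, had 4.08 to 6.47 CPM (median 4.46) at ZT0 and 3.11 to 4.93 CPM (median 3.97) at ZT12 in these mice. Its ZT0 levels were below all those of control mice at ZT0, and its ZT12 levels overlapped those of control mice. The change was then tested for a difference between genotypes. By edgeR no gene was called (2191 at an unadjusted p under 0.05, or 10.8%), and by DESeq2 4 were, among them Tef (knockout minus control -0.79, adjusted p = 0.00114 from DESeq2, against -0.76 and 0.138 from edgeR). Tef had a log2 fold change of -0.06 in knockout mice. Of the 84 ribosomal proteins 64 (76.2%) had an unadjusted p under 0.05 for this difference, all with the lower value in knockout mice (5.63% of all genes did), whose median was 0.07, and the smallest adjusted p from edgeR was 0.442. In the same direction 15 of 30 immediate early genes (50%), 21 of 52 replication-dependent histones (40.4%), 30 of 80 respiratory chain genes (37.5%) and 8 of 25 long noncoding RNAs (32%) did so, and of the 85 chromatin regulators 17 in the other direction (5.18% of all genes). Cholesterol synthesis did not stand out from all genes here, with 2 of 20 (10%). In knockout mice 19 of its 20 genes were negative and 12 had an unadjusted p under 0.05 in that direction (4.09% of all genes), with a median of -0.39 and none called by edgeR. Nsdhl and Cyp51 had log2 fold changes of -0.64 and -0.58 in knockout mice beside -0.79 and -0.67 in control mice. The share of counts on immunoglobulin genes was 53.6% to 59.4% at ZT0 and 53.7% to 55.7% at ZT12 in knockout mice, so the spread that marked the control mice at ZT12 was not seen at that time. It was seen at ZT0, where knockout replicate 3 had 59.4% and a length slope of -0.12, beside 59.1% and -0.06 in control ZT12 replicate 5. This library was kept in every comparison with knockout mice, and its part in the differences between genotypes was not tested. Without ZT12 control replicates 2, 4 and 5 most of these differences did not pass: 1 of 84 ribosomal proteins, 1 of 80 respiratory chain genes and 1 of 25 long noncoding RNAs had a lower value in knockout mice at an unadjusted p under 0.05 (2.27% of all genes did), while 11 of 52 histones and 5 of 30 immediate early genes had. No chromatin regulator and 1 cholesterol gene had a higher value at that p (2.39% of all genes did). The median difference for ribosomal proteins was then -0.28 instead of -0.60, and edgeR called no gene (943 at an unadjusted p under 0.05).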

How the data were processed

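Transcripts were measured in IgA+ PCs sorted from the small intestine of 21 mice. The authors deposited raw gene counts, with 1 column per mouse and no normalization, from poly-A selected libraries (NEBNext Ultra) read as 150-base pairs on a NovaSeq. DESeq2 and DESeq are listed in the submitters' processing notes, and the aligner, the counter, the strand setting and the genome build are not given in the sources used here. Gene coordinates and lengths were taken from the deposited table and match GRCm38. Reads of genes that overlap, lie antisense or have near-identical copies may have been assigned to the wrong gene.

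From the counts, genes with a total of 10 or more were kept, TMM factors were computed and the means of the 4 groups were fitted with robust quasi-likelihood in edgeR 4.0.16 (R 4.3.3). ZT12 was compared with ZT0 in control mice, in knockout mice and between them. Log2 fold changes come from that test, and each SE is the absolute log2 fold change divided by the square root of the test's F. The spread behind F was estimated with all 21 libraries and moderated over genes. The p-values were adjusted by Benjamini-Hochberg over all genes tested, and n is 6 mice per time. The labels state that each library is a separate animal. Single values per mouse were compared by two-sided exact permutation tests in Python 3.11.15. The test was checked on simulated counts with known changes. It recovered 47 of 100 genes changed 1.5-fold and 89 of 100 changed 2-fold, with 7 false calls among 143. The simulated mice had no shared shifts in immunoglobulin share or length trend, so the check cannot speak to those. The spread reported is that between mice. No molecular identifiers were used, so reads are not independent molecules.

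The 65 gene lists and the named genes were chosen with earlier results of these data known. Named were, in each direction, the 15 called genes of smallest p, the 4 called members of each list with the smallest p or, with none called, the single member with the smallest p, the clock genes and 8 plasma cell and sterol genes. Some single genes are not reported here. Of the list entries, 8 were not found in the table by name. Alternatives were DESeq2 1.42.0, other scalings and filters, a threshold of 0.01, the control libraries alone, the replicate number as a block, removal of the trend on gene length, covariates (immunoglobulin share, Xist, epithelial markers) and each mouse left out. Removal of ZT12 replicates 2, 4 and 5 and the split by sex were added after the data were seen.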

Additional observations from a re-analysis of the deposited data

Results flagged for a closer look

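Of 256 sets of 6 values checked, 24 (9.4%) held a mouse whose gap to the nearest other mouse exceeded Dixon's 95% limit for 6 values. Chance flags about 1 in 20 such sets. ZT12 replicate 2 accounted for 6 of the 24: it was the highest mouse for Gm8730 (24.9 CPM), Csnk2b (50.6 CPM), Bhlhe41 (76.4 CPM), Igkc (201587 CPM) and the lambda gene Iglv2 (1168 CPM), and the lowest for Cry2 (14.8 CPM). This is the library with the largest immunoglobulin share.

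ZT12 replicate 5 was the highest for the epithelial marker Fabp1 (13.7 CPM) and the lowest for Fam134b (8.50 CPM). ZT12 replicate 6 was the highest for Arntl (5.56 CPM), Hlf (0.50 CPM) and Cd8a (0.313 CPM), replicate 4 for Per3 (26.7 CPM) and replicate 1 for Prdm1 (344 CPM).

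At ZT0, replicate 5 was the highest for Nfxl1 (59.3 CPM), Erlec1 (52.1 CPM), Per2 (10.3 CPM) and Cry2 (20.5 CPM). ZT0 replicate 6 was the lowest for Igha (235061 CPM) and Itgal (245.3 CPM) and the highest for the histone gene Hist2h2be (2.50 CPM). ZT0 replicate 4 was the highest for Scd2 (111 CPM) and Uqcrh (31.2 CPM), replicate 1 for Ctsa (53.1 CPM), and replicate 2 had the steepest trend on gene length of the ZT0 mice (0.113 log2 CPM per log2 of length).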

How the results depend on the processing

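The number of called genes depended on the setting far more than the direction of the main groups did. Against 350 genes, 12 cholesterol genes, 47 ribosomal proteins and 125 list memberships called as reported, a threshold of 0.01 left 14, 3, 0 and 9. The control libraries alone left 38, 5, 0 and 18. With the epithelial markers as a covariate 129, 6, 21 and 53 were called, and with the immunoglobulin share as a covariate 0, 0, 0 and 0 (edgeR, 1648 genes at an unadjusted p under 0.05). With ZT12 replicates 2, 4 and 5 left out the counts were 2, 0, 0 and 2, in female mice alone 1, 0, 0 and 0, and in male mice alone 10, 2, 0 and 6, these 3 settings having been added after the data were seen. DESeq2 called 1052 genes, 71 ribosomal proteins and 318 list memberships, and 4 genes for the difference between genotypes. Scaling by library size alone left 13 ribosomal proteins and put the cholesterol median at -0.80. The ribosomal median stayed positive in every setting run and was lowest at 0.23 with the immunoglobulin share as a covariate, and the cholesterol median stayed negative in every setting run.

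Whether replicate numbers pair the mice was not settled: same-numbered mice of the 2 times had correlations of 0.08, -0.24, -0.15, 0.23, -0.14 and 0.14. ZT0 replicates 1, 4 and 6 correlated most with the ZT12 mouse of their own number, and replicates 2, 3 and 5 with another. Low correlations do not exclude a shared litter or batch. The fit with the replicate number as a block called 34 genes, 5 cholesterol genes, 0 ribosomal proteins and 17 list memberships, and the block together with removal of the length trend called 106, 7, 14 and 46. The immunoglobulin share differed by 4.56 points in the block (two-sided exact permutation test within pairs, p = 0.03125) and by 3.62 points when only constant regions were counted (exact permutation test, p = 0.0844). Leaving out single mice gave 31 (ZT0 replicate 2) to 934 (ZT12 replicate 1) called genes, with 42, 89, 148, 100 and 194 without ZT0 replicates 1, 3, 4, 5 and 6 and 101, 113, 36, 175 and 687 without ZT12 replicates 2, 3, 4, 5 and 6. It gave 5 to 13 cholesterol genes, 1 to 69 ribosomal proteins and 18 to 260 list memberships.

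No named gene that was called changed sign in the alternatives run for it, which were 29, or 28 for Ighv3-8 and Igkv8-24. Among other genes and lists the sign changed for several near 0 but also for the respiratory chain, Igkc, Igha and Hlf, whose reported values were 0.34, 0.38, 0.36 and -0.68. Under library size alone the medians became -0.094 for disulfide formation, -0.045 for stress sensors, -0.034 for ER translocation, -0.115 for ER to Golgi transport, -0.056 for lysosome, -0.029 for oxidative stress defence, -0.084 for translation factors and -0.146 for splicing factors, and the log2 fold changes became -0.041 for Jchain, -0.068 for Cry2, -0.078 for Per3, -0.106 for Per1, -0.061 for Bhlhe40 and -0.10 for Dbp. With the immunoglobulin covariate the respiratory chain median became -0.0093, that of chromatin regulators 0.0040, and the log2 fold changes became -0.030 for Igkc, -0.047 for Igha, -0.099 for Jchain, -0.14 for Iglv2, 0.014 for Clock, -0.0072 for Npas2 and -0.053 for Dbp. Igkc, Igha and Iglv2 are themselves counted in that share, so their changes there cannot be told apart from that of the share. In female mice interferon-stimulated genes had 0.042, Clock 0.011, Per3 -0.17, Dbp -0.22 and Bhlhe41 0.012. With the length trend removed Igkc had -0.042, Clock 0.017 and Bhlhe41 0.076, and with the block in addition -0.045, 0.00334 and 0.036. With the epithelial covariate Npas2 had -0.083, Bhlhe40 -0.016 and Bhlhe41 0.027, and without ZT12 replicates 2, 4 and 5 Jchain had -0.041, Npas2 -3.18, Hlf 0.060 and Dbp -0.061. Dbp ranged from -0.074 to 0.24 and Bhlhe41 from -0.16 to 0.013 when single mice were left out. The cause of these changes was not tested. Depth limits the low genes most, such as Npas2 and Hlf.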

Other observations

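Among the genes called higher outside the lists, 5 are known from tissue macrophages: Mrc1, a mannose receptor (1.00 to 1.67 CPM at ZT0 and 1.24 to 5.71 CPM at ZT12, log2 fold change 1.28, SE 0.28, adjusted p = 0.0252 from edgeR), Gpnmb (14.7 to 22 and 21.3 to 63.3 CPM, log2 fold change 1.13), the selenium carrier Selenop (8.6 to 13.2 and 13.7 to 26.2 CPM, 0.89), the sterol hydroxylase Cyp27a1 (0.118 to 0.524 and 0.304 to 2.40 CPM, 2.04) and the cobalamin carrier Tcn2 (1.51 to 2.71 and 2.73 to 12.0 CPM, 1.40). They were picked after their values were seen. The list of 9 myeloid markers gave no call by edgeR (1 at an unadjusted p under 0.05) or by DESeq2 and summed to 35.0 to 71.5 CPM at ZT0 and 15 to 82.9 CPM at ZT12. Vegfa, a growth factor outside the lists, had 0.589 to 1.77 CPM at ZT0 and 1.70 to 32.6 CPM at ZT12 (log2 fold change 3.40, SE 0.79, adjusted p = 0.0414 from edgeR), with overlapping mice, and it was among the 4 genes whose change DESeq2 called different between genotypes. When ZT12 replicates 2, 4 and 5 were left out, edgeR called none of these genes, with log2 fold changes of 1.34 for Mrc1, 0.93 for Selenop and 2.29 for Vegfa.

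Among the genes called lower outside the lists, 6 act on the actin cytoskeleton or on the small GTPases that steer it and were likewise picked after their values were seen. Dock2, an activator of Rac in lymphocytes, had 94.3 to 111 CPM at ZT0 and 42.8 to 98.1 CPM at ZT12 (log2 fold change -0.54, SE 0.14, adjusted p = 0.0462 from edgeR). Its partner Elmo1 had 19.2 to 31.4 and 10.8 to 22.6 CPM (log2 fold change -0.79, SE 0.17, adjusted p = 0.0275 from edgeR), Dock10 a log2 fold change of -0.41, Coro1a, which binds actin in leukocytes, -0.41, Cyfip2 of the WAVE complex -0.45 and the formin Inf2 -0.53. Ptpn6, the phosphatase SHP-1 that restrains B cell receptor signals, had 29.8 to 49.7 and 23.1 to 37.5 CPM (log2 fold change -0.51, SE 0.12, adjusted p = 0.0321 from edgeR). When ZT12 replicates 2, 4 and 5 were left out, Dock2 had -0.28, Elmo1 -0.44 and Ptpn6 -0.33, and edgeR called none of these genes.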
